A study of Homo sapiens with 6 samples.

Results

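The genes described here are 53 genes of mitosis and the G2/M transition, picked by name for their textbook roles (mitotic cyclins, kinases, kinesins, kinetochore and cytokinesis proteins) out of 30178 genes measured. All 53 were found by symbol, and 52 of them had a mean of at least 1 FPKM over the 6 libraries and were tested. FPKM is a read count scaled to the length of the gene and the size of the library. The member left out by that filter was PRC1. Total RNA was sequenced from stable lines made from CAL27, an established line of human oral adenosquamous carcinoma. All lines grew in DMEM with FBS and G418, and the labels describe them as carrying GFP fusions. The groups are a line with constitutive expression of MB21D2 carrying the Q311E substitution, a line with constitutive expression of wild-type MB21D2, and a line with an empty vector, and each has a library A and a library B, 6 in all. MB21D2 belongs to the protein family of the DNA sensor cGAS. Whether a line is 1 clone, which promoter drives the transgene, whether the empty vector encodes GFP and whether libraries A and B came from different cultures is not given in the labels. The p-values below therefore rest on the spread of these libraries, which may be technical.

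Cells enter mitosis when cyclin B and CDK1 are switched on, and leave it when the anaphase-promoting complex marks the cyclins and securin for destruction. The genes of this programme are transcribed late in the cycle, through promoters bound by the MuvB complex with B-MYB and FOXM1, and are kept off in resting cells by the DREAM complex. In carcinoma cell lines their RNA is widely read as a measure of cycling cells. In bulk RNA, fewer cells in G2 and M and less RNA per such cell cannot be told apart.

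Library totals ran from 20645410 to 24147306 reads. MB21D2 itself had 32.8 and 21.2 FPKM in Q311E A and B, 104 and 106 FPKM in wild-type A and B, and 8.31 and 7.15 FPKM in vector A and B, so every MB21D2 library was above the vector. MB21D2 was also lower in Q311E than in wild-type (log2 fold change -1.95 ± 0.20, limma adjusted p = 0.00592), and the effects of substitution and level cannot be told apart. Epithelial markers were present in every library: KRT5 lay between 405 and 579 FPKM and EPCAM between 116 and 167 FPKM. Other keratins differed between the lines. KRT14, a basal keratin, had 0.771 and 0.902 FPKM in the Q311E line and 2.08 and 2.35 FPKM in the wild-type line, against 762 and 697 FPKM in the vector line. KRT6A, a keratin of activated epidermis, had 16.7 and 14.97 FPKM in Q311E A and B and 7.90 and 9.49 FPKM in wild-type A and B, against 109 and 104 FPKM in the vector libraries. Of the 9 epithelial markers, 1 rose and 2 fell in Q311E against vector, and 4 fell in wild-type against vector (KRT14, KRT6A, KRT17 and TP63). The leukocyte marker PTPRC was at or below 0.00478 FPKM in all libraries and the fibroblast marker DCN at or below 0.00749 FPKM. Of the other fibroblast markers, PDGFRB reached 0.697, LUM 0.422, COL3A1 0.114 and THY1 0.0740 FPKM. The collagen genes COL1A1 and COL1A2 were present at low levels, from 0.984 to 1.85 FPKM and from 0.660 to 1.64 FPKM, and COL1A2 rose in Q311E against vector (0.45, limma adjusted p = 0.0394). CDH5, listed as endothelial, lay between 15.4 and 35.2 FPKM. The other endothelial markers were low, with PECAM1 at or below 0.317, VWF at or below 0.0801 and KDR at or below 0.0143 FPKM. The part of the cells behind these markers in the results below was not tested. The 2 libraries of the Q311E line differed more than those of the other lines: over all tested genes, log2 B minus A had an SD of 0.436 for Q311E, 0.145 for wild-type and 0.192 for vector.

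Members of this programme share promoter elements that their choice by name did not use. RefSeq promoter windows (GRCh38.p14, 250 bases before to 50 after the gene start) were on hand for 46 of the 53 members. The letters TTTGAA, the core of the cell cycle homology region that MuvB binds, occurred on either strand in 33 of the 46 windows (71.7%), against 15.4% of 27305 promoter windows. TTTAAA, a variant of it, occurred in 14 of 46 (30.4%), against 12.4% of all. The CCAAT box, bound by NF-Y, was in 35 of 46 (76.1%), against 35.7% of all. Both kinds of element stood in 31 of 46 (67.4%), against 9.49% of all, and 4 member windows held none of the 3 motifs. Matches overlapped each other in 4 member windows. The last 120 bases before the start are shown for 6 members. PLK1, CCNB1 and CDC20 stand for those called lower in Q311E than in wild-type, and CKS2, PTTG1 and CDC25B for those called lower in Q311E than in the vector with a small gap between the Q311E libraries. Capitals mark matches to any of these 3 motifs on either strand, and all 6 genes lie on the plus strand.
PLK1 (chr16:23678769-23678888): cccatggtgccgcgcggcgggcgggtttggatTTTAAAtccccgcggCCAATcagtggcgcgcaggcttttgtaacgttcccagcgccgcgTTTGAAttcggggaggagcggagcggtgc
CCNB1 (chr5:69167030-69167149): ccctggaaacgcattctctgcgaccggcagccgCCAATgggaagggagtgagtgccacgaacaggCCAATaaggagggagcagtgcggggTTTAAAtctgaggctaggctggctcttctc
CDC20 (chr1:43358861-43358980): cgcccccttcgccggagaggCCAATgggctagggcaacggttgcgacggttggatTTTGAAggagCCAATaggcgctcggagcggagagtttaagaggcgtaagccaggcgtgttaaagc
CKS2 (chr9:89311075-89311194): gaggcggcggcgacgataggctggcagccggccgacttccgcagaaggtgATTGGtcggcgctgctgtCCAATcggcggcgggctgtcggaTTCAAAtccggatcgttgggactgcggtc
PTTG1 (chr5:160421735-160421854): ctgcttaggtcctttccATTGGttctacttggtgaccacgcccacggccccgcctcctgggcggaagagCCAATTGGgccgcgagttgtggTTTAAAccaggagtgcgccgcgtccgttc
CDC25B (chr20:3786831-3786950): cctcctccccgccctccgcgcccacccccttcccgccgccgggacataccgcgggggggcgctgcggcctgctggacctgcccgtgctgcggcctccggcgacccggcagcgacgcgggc
The first 5 of these stretches hold matches to both kinds of element, and in PTTG1 a pair of CCAAT matches on opposite strands overlaps. CDC25B holds none of these letters in its window, which says nothing about the factors that act on it.

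The 52 tested members differed between the lines in a graded way. The summed reads of all 53 members, PRC1 included, came to 7089.9 and 4936 CPM (recovered reads scaled to the library total) in Q311E A and B, 9074 and 9126 CPM in wild-type A and B, and 7663 and 7332 CPM in vector A and B. On the log2(FPKM + 1) scale, the median member stood at -0.05 relative to the vector mean in Q311E A, at -0.57 in Q311E B, and at 0.27 in both wild-type libraries. Over all genes tested, the same medians were 0.02 and -0.02 in Q311E A and B, and -0.04 and -0.06 in wild-type A and B. The wild-type libraries thus lay on the high side and Q311E B on the low side, with Q311E A close to the vector.

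**Figure D1:**
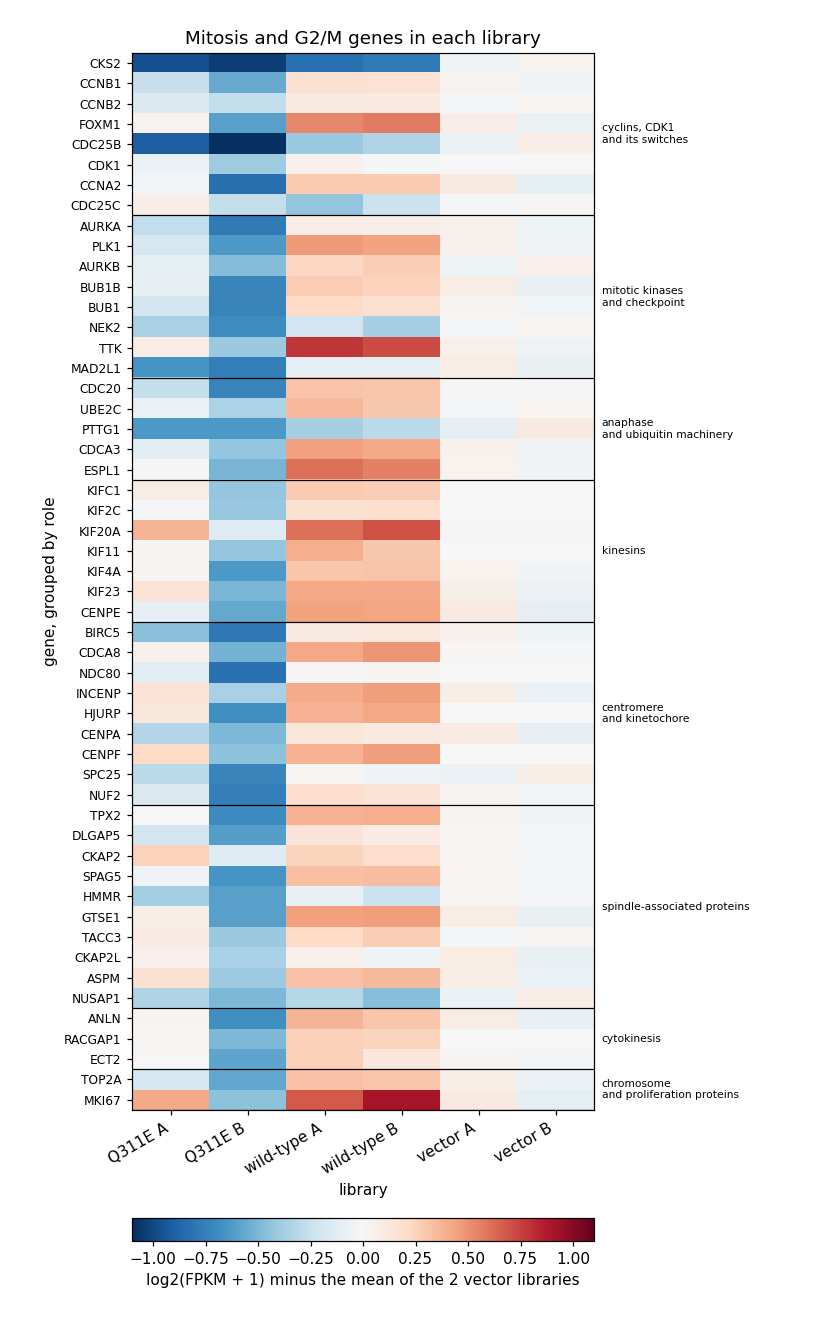
Colour gives log2(FPKM + 1) of each of the 52 tested members (rows, grouped by role, highest mean FPKM first) in each library (columns), minus the mean of the 2 vector libraries. Q311E B is below the vector mean for 52 of 52 members, and the wild-type columns are mostly above it apart from a few members such as CKS2, CDC25B and PTTG1.

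The comparison of Q311E with the empty vector asks what the substituted form changes. In the limma fit over all genes, 8 of 52 members fell and 0 rose (15.4% and 0%), where 9.28% of all tested genes were called lower and 8.67% higher. At an unadjusted p under 0.05, 18 members were lower and 0 higher. With limma-voom on recovered reads 7 were called lower and 0 higher, where 18.2% of all genes were called either way. Shares of all genes are not given for unadjusted counts, here or below, or for limma-voom in the other comparisons. Those counts are therefore not set against the series. The median fitted value of the members was -0.30, against 0.00 for all genes, and 27 of 52 members had both Q311E libraries below both vector libraries (51.9%, against 30% of all genes), while no member had both above (against 30.1% of all genes).

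Among the cyclins, CDK1 and its switches, 2 of 8 fell. CKS2, a small protein that binds CDK1 and was the most abundant of this group, had 181 and 173 FPKM in Q311E A and B, against 346 and 365 FPKM in the vector libraries. Its fitted change was -1.0004 ± 0.09 (log2 fold change ± SE, limma adjusted p = 0.00535). CDC25B, a phosphatase that activates CDK1, had 26.5 and 23.0 FPKM in Q311E A and B, against 48.0 and 53.4 FPKM in the vector libraries, and fell by 1.01 on the log2 scale (SE 0.10, limma adjusted p = 0.00665). In both genes the Q311E libraries were well below the vector, with a narrow gap between Q311E A and Q311E B. Cyclin B1 (CCNB1) had 115 and 93.5 FPKM in Q311E A and B, against 141 and 134 FPKM in the vector libraries, and did not pass (limma adjusted p = 0.0704).

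Of the 8 mitotic kinases and checkpoint proteins 2 fell. MAD2L1, which holds back the anaphase-promoting complex until chromosomes are attached, had 7.79 and 7.19 FPKM in Q311E A and B, against 13.7 and 12.1 FPKM in vector A and B (-0.71 ± 0.09, limma adjusted p = 0.0108). NEK2, a centrosome kinase, had 16.6 and 13.0 FPKM, against 21.2 and 21.9 FPKM in the vector libraries (-0.52 ± 0.13, limma adjusted p = 0.0475). The aurora kinase AURKA, which builds spindle poles, had 45.8 and 31.9 FPKM in Q311E A and B, against 57.1 and 53.7 FPKM in the vector libraries, and missed the threshold (limma adjusted p = 0.0916). Its Q311E libraries lay below both vector libraries but far from each other. In the wild-type libraries NEK2 had 18.5 and 16.5 FPKM and AURKA 58.5 and 58.0 FPKM.

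The remaining 4 falls were spread over other roles. PTTG1, the securin that guards sister chromatid cohesion, had 33.6 FPKM in each Q311E library, against 48.8 and 56.5 FPKM in the vector libraries (-0.63 ± 0.09, limma adjusted p = 0.0145). BIRC5, the survivin subunit of the chromosomal passenger complex, had 41.9 and 33.3 FPKM in Q311E A and B, against 60.3 and 56.1 FPKM (-0.62 ± 0.12, limma adjusted p = 0.0272). The centromere histone CENPA had 15.8 and 13.9 FPKM in Q311E A and B, against 21.3 and 18.8 FPKM in the vector libraries (-0.41 ± 0.10, limma adjusted p = 0.0461). For these 3 genes, too, the groups did not overlap. HMMR, a spindle protein and hyaluronan receptor, had 20.2 and 17.2 FPKM, against 27.0 and 26.1 FPKM in the vector libraries (-0.49 ± 0.11, limma adjusted p = 0.0349). The wild-type libraries held 40.4 and 42.8 FPKM of PTTG1, 62.1 and 63.0 FPKM of BIRC5, 22.0 and 21.5 FPKM of CENPA, and 25.01 and 22.4 FPKM of HMMR. For PTTG1 and HMMR these lie between the other lines, and for BIRC5 and CENPA above both. The 7 kinesins, the 3 tested cytokinesis genes, TOP2A and MKI67 had limma adjusted p of 0.113 or more here.

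The count of 8 depended on which libraries entered the fit. Leaving out a library of a compared line changes the mean of that line as well as the spread. No count is given here from fits that leave 1 library in the Q311E or vector line. Counts from fits with 1 library in a line, where they appear further below, are descriptions only, since that line adds nothing to the spread. The member median, -0.30 with all 6 libraries, was -0.57 without Q311E A and -0.051 without Q311E B. It was -0.26 without vector A and -0.35 without vector B. In a fit of the Q311E and vector libraries alone the count was 2, CKS2 and CDC25B (3.85% of the members). In that fit 1.05% of all genes were called lower and 1.24% higher.

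**Figure D2:**
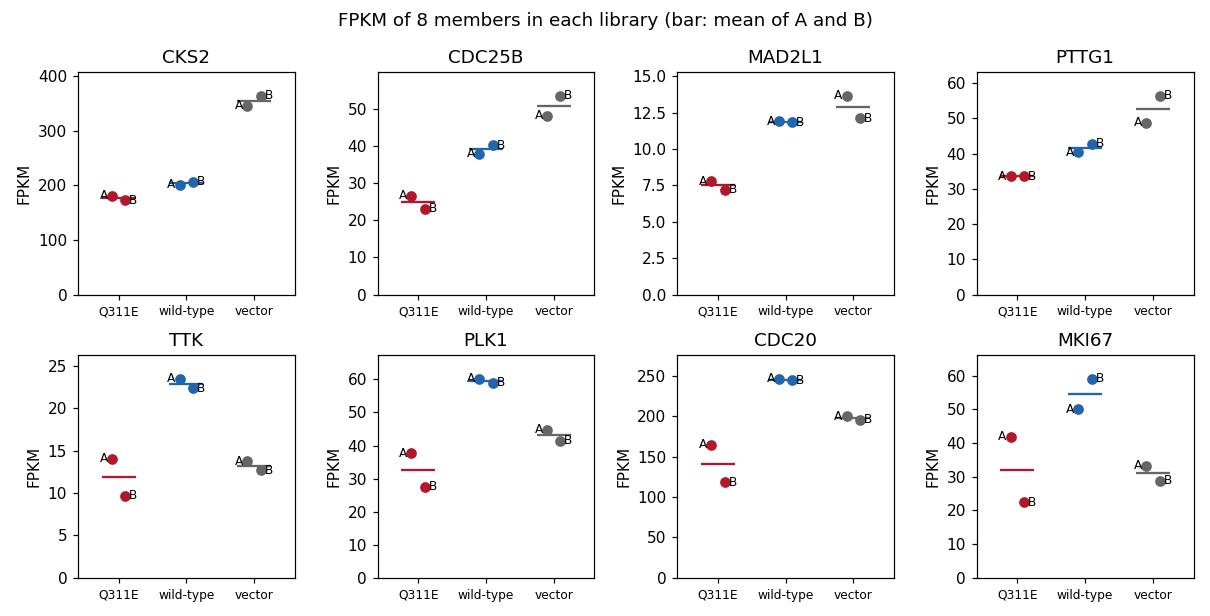
Each panel plots FPKM (axis from 0) of a member in the Q311E, wild-type and vector lines; points are libraries A and B, and bars are their means. CKS2, CDC25B, MAD2L1 and PTTG1 have close Q311E libraries below the vector, whereas TTK, PLK1, CDC20 and MKI67 are highest in the wild-type line and differ between Q311E A and Q311E B.

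The comparison of wild-type MB21D2 with the empty vector asks which transcripts differ when the normal protein is expressed. Most members were somewhat higher in the wild-type line: the median fitted value was 0.26, against -0.05 for all genes. Of 52 values 43 were above 0 (82.7%, against 42.9% of all genes). Both wild-type libraries exceeded both vector libraries for 41 of 52 members (78.8%, against 32.1% of all genes). In the fit with all 3 lines, however, 1 member rose and 1 fell (1.92% each, against 3.54% and 8.76% of all genes). At an unadjusted p under 0.05 these counts were 9 higher and 4 lower, and limma-voom on recovered reads called 1 and 1.

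TTK, the kinase that starts the spindle checkpoint, was the member that rose, with 23.5 and 22.4 FPKM in wild-type A and B, against 13.7 and 12.7 FPKM in the vector libraries (0.75 ± 0.17, limma adjusted p = 0.0462). CKS2 was the member that fell, with 201 and 207 FPKM in wild-type A and B, against 346 and 365 FPKM in vector A and B (-0.80 ± 0.09, limma adjusted p = 0.0105). In both genes the wild-type libraries were within a narrow range and the groups stood apart. Other members were higher without passing. MKI67, the Ki-67 proliferation antigen, had 50.1 and 59.1 FPKM in wild-type A and B, against 33.3 and 28.9 FPKM in the vector libraries (0.79 ± 0.29, limma adjusted p = 0.133). FOXM1, a transcription factor of the G2/M programme, had 53.0 and 54.6 FPKM in wild-type A and B, against 38.4 and 34.5 FPKM in the vector libraries (0.55 ± 0.21, limma adjusted p = 0.144). KIF20A, a kinesin of the central spindle, had 41.5 and 44.5 FPKM in the wild-type libraries, against 27.2 and 26.7 FPKM (0.65 ± 0.17, limma adjusted p = 0.0658), and was singled out after its values were seen. In these 3 genes the groups did not overlap, but none reached an adjusted p under 0.05 in the fit that shares its spread with the Q311E pair.

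By role, all 7 kinesins had fitted values above 0, from 0.18 to 0.65, with limma adjusted p from 0.0658 to 0.418. KIFC1, a spindle-focusing kinesin and the most abundant of them, had 54.2 and 53.8 FPKM in the wild-type line, against 44.3 and 44.4 FPKM in the vector line, and it had 47.1 and 32.7 FPKM in Q311E A and B. The 5 genes of anaphase and ubiquitin machinery had 4 values above 0 and PTTG1 at -0.33, and the 3 tested cytokinesis genes had values from 0.19 to 0.34. Set against these were 8 members with both wild-type libraries below both vector libraries (15.4%, against 44.9% of all genes): CDC25B, CDC25C, CKS2, HMMR, MAD2L1, NEK2, NUSAP1 and PTTG1. CDC25B had 37.9 and 40.1 FPKM in wild-type A and B, against 48.0 and 53.4 FPKM in the vector libraries (limma adjusted p = 0.0752).

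When the spread came from the wild-type and vector libraries alone, 35 members were called higher and 6 lower, where 17.5% of all genes were called higher and 28.4% lower. The 6 were CDC25B, CDC25C, CKS2, NEK2, NUSAP1 and PTTG1. Without Q311E A the counts were 34 higher and 6 lower (17.3% and 28.4% of all genes), and without Q311E B also 34 and 6 (17.5% and 28.4%). In limma 0 members were called without wild-type A, wild-type B, vector A or vector B. At an unadjusted p under 0.05, 2 members were higher and 2 lower when wild-type A was left out, 1 and 2 when wild-type B was left out, 3 and 4 without vector A, and 1 and 1 without vector B. Fitted values in this comparison went up with exon length, across the 52 members (Spearman rho 0.492) and across 11475 genes (rho 0.226). These are descriptions across genes of the same libraries, which are not independent replicates. An alternative added after the data were seen removed the trend with exon length from each library. The member median was then 0.31 and the calls were again 1 higher and 1 lower.

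**Figure D3:**
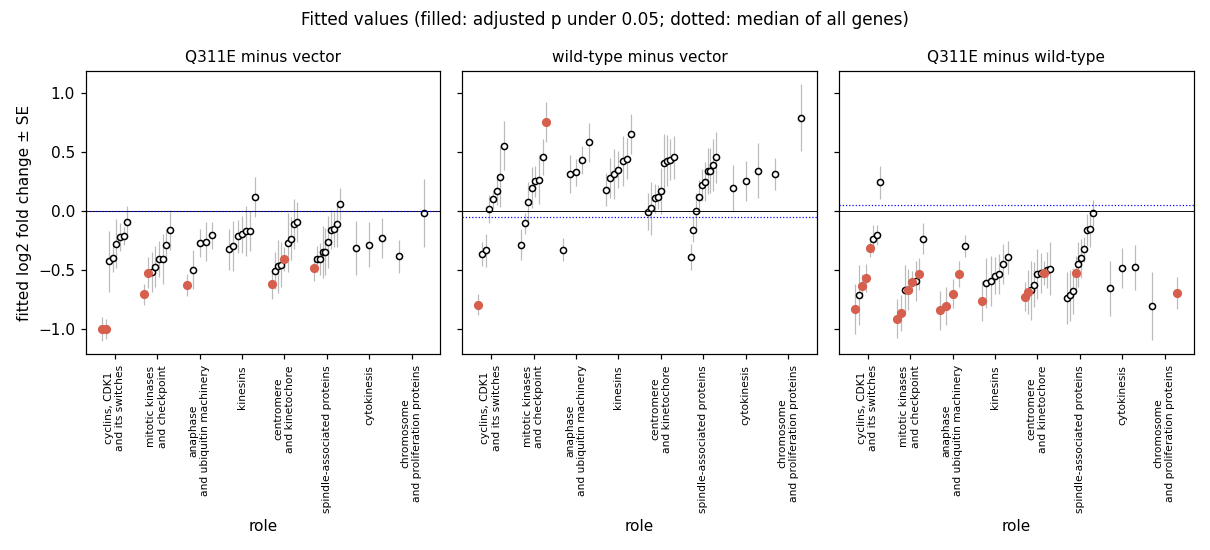
Fitted log2 fold changes with SE (vertical axis) of the 52 tested members, by role (horizontal axis), in each of the 3 comparisons; filled points passed the adjusted threshold and the dotted line is the median of all genes. Nearly all members lie below 0 in Q311E minus wild-type (51 of 52, against 45.5% of all genes). In wild-type minus vector 43 of 52 lie above 0 (against 42.9% of all genes).

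Q311E against wild-type MB21D2 is the comparison that the design text of the series names. Here 19 of 52 members fell and 0 rose in the Q311E line (36.5% and 0%, against 10.1% and 17.5% of all genes called lower and higher). An unadjusted p under 0.05 was met by 40 members, all lower, and limma-voom on recovered reads called 22 lower and 0 higher. Shares of all genes are not given for these counts, which are therefore not set against the series. The median was -0.56, against 0.05 for all genes, and 47 of 52 members had both Q311E libraries below both wild-type libraries (90.4%, against 30.8% of all genes), with none above (against 39.3% of all genes). This comparison shares its libraries with the others, so it is no independent repeat of them.

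The cyclin group held 4 falls. Cyclin B1 (CCNB1) had 115 and 93.5 FPKM in Q311E A and B, against 155 and 154 FPKM in wild-type A and B (-0.57 ± 0.12, limma adjusted p = 0.0245). Cyclin B2 (CCNB2) had 36.8 and 33.9 FPKM, against 44.2 and 44.4 FPKM in the wild-type libraries, a change of -0.32 ± 0.08. FOXM1 had 37.4 and 23.7 FPKM in Q311E A and B, against 53.0 and 54.6 FPKM in wild-type A and B (-0.83 ± 0.21). All of these groups stood apart, though FOXM1 was much lower in Q311E B than in Q311E A. The vector libraries had 40.6 and 41.9 FPKM of CCNB2, between those lines. CDC25B was lower as well (-0.64 ± 0.10, limma adjusted p = 0.0146), while CKS2, at 181 and 173 FPKM against 201 and 207 FPKM, did not pass (-0.20 ± 0.09, limma adjusted p = 0.128). CDC25C, a phosphatase related to CDC25B, was the only member with a fitted value above 0 (0.24 ± 0.14, limma adjusted p = 0.233).

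Of the kinases and checkpoint genes 5 of 8 fell. TTK had 14.1 and 9.70 FPKM in Q311E A and B, against 23.5 and 22.4 FPKM in wild-type A and B, the lowest fitted value of all members here (-0.91 ± 0.17, limma adjusted p = 0.019). PLK1, the polo-like kinase of mitotic entry, had 37.7 and 27.5 FPKM, against 60.1 and 58.9 FPKM in the wild-type libraries (-0.87 ± 0.15, limma adjusted p = 0.0174). AURKB, the kinase of the chromosomal passenger complex, had 32.9 and 25.2 FPKM in Q311E A and B, against 41.6 and 42.8 FPKM. Each of the 3 kinases was lower in Q311E B than in Q311E A, yet both libraries were below the wild-type line. BUB1, a checkpoint kinase at kinetochores, had 16.6 and 11.2 FPKM in Q311E A and B, against 22.8 and 21.9 FPKM in the wild-type libraries, and MAD2L1 had 7.79 and 7.19 FPKM, against 11.9 and 11.8 FPKM. In the vector libraries, PLK1 had 44.8 and 41.5 FPKM, AURKB 34.0 and 36.7 FPKM, and BUB1 19.8 and 19.0 FPKM, each below both wild-type libraries and above both Q311E libraries.

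The machinery of anaphase had 4 falls among 5 genes. CDC20, which activates the anaphase-promoting complex, had 165 and 118 FPKM in Q311E A and B, against 246 and 245 FPKM in wild-type A and B (-0.81 ± 0.16, limma adjusted p = 0.0235). UBE2C, its ubiquitin-conjugating enzyme, had 102 and 84.4 FPKM, against 138 and 132 FPKM in the wild-type libraries. ESPL1, the separase that cuts cohesin, had 8.10 and 5.47 FPKM in Q311E A and B, against 13.0 and 12.5 FPKM (-0.84 ± 0.17, limma adjusted p = 0.0223). All 3 genes sat at their highest in the wild-type line. CDCA3, a trigger of mitotic entry, had 8.74 and 6.83 FPKM in the Q311E libraries, against 13.4 and 13.1 FPKM in the wild-type libraries. In the vector libraries, CDC20 had 199.8 and 196 FPKM, UBE2C 106 and 109 FPKM, ESPL1 8.44 and 7.99 FPKM, and CDCA3 9.89 and 9.21 FPKM. All 4 genes were lower there than in the wild-type line.

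Of 9 centromere and kinetochore genes 3 fell: BIRC5 (-0.73 ± 0.12), CDCA8 (-0.69 ± 0.18) and CENPA (-0.53 ± 0.10). CDCA8, the borealin subunit of the passenger complex, had 41.1 and 27.5 FPKM in Q311E A and B, against 53.7 and 56.0 FPKM in wild-type A and B. The kinesins held 1 fall among 7, in CENPE, a kinetochore motor, with 4.09 and 2.66 FPKM in the Q311E libraries, against 6.36 and 6.32 FPKM in the wild-type libraries. Among 10 spindle-associated genes 1 fell, DLGAP5, a spindle assembly factor, with 25.2 and 18.9 FPKM in Q311E A and B, against 32.5 and 31.3 FPKM. TOP2A, the topoisomerase that untangles chromosomes, had 66.1 and 50.6 FPKM in Q311E A and B, against 94.9 and 93.9 FPKM in wild-type A and B (-0.70 ± 0.14, limma adjusted p = 0.0227). In the vector libraries, CDCA8 had 40.5 and 39.1 FPKM, CENPE 4.78 and 4.05 FPKM, DLGAP5 29.7 and 28.9 FPKM, and TOP2A 79.2 and 72.7 FPKM. Each stood below both wild-type libraries, and CDCA8 lay between the Q311E libraries. No test of a difference between these roles was made.

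Leaving out libraries moved the count of 19 widely. It was 50, all lower, without Q311E A, where 27.8% of all genes were called lower and 32.8% higher. Without Q311E B it was 37 lower and 1 higher, where 16% of all genes were called lower and 24.5% higher. In limma it was 2 without vector A or without vector B, and 0 without wild-type A or without wild-type B, where 16 and 19 members were lower at an unadjusted p under 0.05. With the Q311E and wild-type libraries alone it was 2, CDC25B and MAD2L1, where 2.25% of all genes were called lower and 6.23% higher.

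Within the Q311E line, library B lay below library A for 52 of 52 members, whereas 54.3% of all tested genes were lower in B. With 1 library each, no test of this difference is possible, and it is given as a description. The median of B minus A was -0.48 for the members and -0.04 for all genes, and the members ranged from -0.87 to 0.00. A difference beyond -0.5 was found in 23 members (44.2%, against 8.48% of all genes). Between the wild-type libraries the members' median of B minus A was -0.01 and 29 of 52 were lower in B (55.8%, against 55% of all genes). Between the vector libraries it was -0.05 and 38 of 52 were lower in B (73.1%, against 53.9% of all genes). MB21D2 was also lower in Q311E B (21.2 FPKM) than in Q311E A (32.8 FPKM), and its part in the gap was not tested.

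MKI67 had the widest gap, with 41.9 FPKM in Q311E A and 22.4 FPKM in Q311E B (difference -0.87). Its level in Q311E A was above both vector libraries, and in Q311E B below both. Cyclin A2 (CCNA2), which drives S phase and mitotic entry, had 27.5 and 15.4 FPKM in Q311E A and B, 34.4 and 34.5 FPKM in the wild-type libraries, and 30.1 and 26.2 FPKM in the vector libraries. HJURP, the chaperone that loads CENPA, had 24.0 and 13.4 FPKM in Q311E A and B, 28.9 and 29.8 FPKM in wild-type A and B, and 22.0 and 21.9 FPKM in vector A and B. Both genes were thus near or above the vector in Q311E A and far below it in Q311E B.

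Wide gaps were found in many roles. NDC80, a kinetochore subunit that grips microtubules, had 29.1 and 17.4 FPKM in Q311E A and B, 31.9 and 32.4 FPKM in the wild-type libraries, and 31.6 and 31.8 FPKM in the vector libraries. ANLN, an actin-binding protein of the cleavage furrow, had 85.8 and 52.3 FPKM in Q311E A and B, 109 and 104 FPKM in wild-type A and B, and 88.7 and 79.1 FPKM in vector A and B. TPX2, a spindle assembly factor that activates AURKA, had 82.3 and 50.6 FPKM in Q311E A and B, 108 and 109 FPKM in the wild-type libraries, and 84.8 and 80.5 FPKM in the vector libraries. In these 3 genes the libraries of each other line lay much closer together. The kinetochore protein CENPF had 19.7 and 12.01 FPKM in Q311E A and B, 22.2 and 23.5 FPKM in the wild-type libraries, and 16.7 and 16.8 FPKM in the vector libraries. GTSE1, a microtubule-binding protein, had 19.1 and 11.7 FPKM in Q311E A and B, 25.2 and 25.3 FPKM in wild-type A and B, and 19.4 and 17.1 FPKM in vector A and B. For both, the vector libraries lay between Q311E B and the wild-type line. KIF23, a kinesin of the midbody, had 19.3 and 11.9 FPKM in Q311E A and B, 23.5 and 23.4 FPKM in the wild-type libraries, and 18.0 and 16.5 FPKM in the vector libraries. KIF4A, a chromosome-bound kinesin, had 19.1 and 11.7 FPKM in Q311E A and B, 23.3 and 23.5 FPKM in the wild-type libraries, and 19.2 and 18.1 FPKM in the vector libraries.

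At the other end, PTTG1, CKS2, MAD2L1, CCNB2 and NUSAP1 differed by 0.16 or less between the Q311E libraries (0.00, -0.06, -0.10, -0.11 and -0.16). Of these, PTTG1, CKS2 and MAD2L1 are among the 8 genes called lower than the vector. CDC25B (-0.20), CENPA (-0.18) and HMMR (-0.22), called there too, came next, while the remaining called genes BIRC5 (-0.32) and NEK2 (-0.33) had wider gaps. A pair of close libraries gives a smaller residual spread in the fit. The difference B minus A fell with exon length across the members (Spearman rho -0.392, 52 genes) and across all genes (rho -0.231, 11475 genes), and showed little relation to mean FPKM among the members (rho 0.042). With the trend with exon length removed, the median of B minus A over the members was -0.43.

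**Figure D4:**
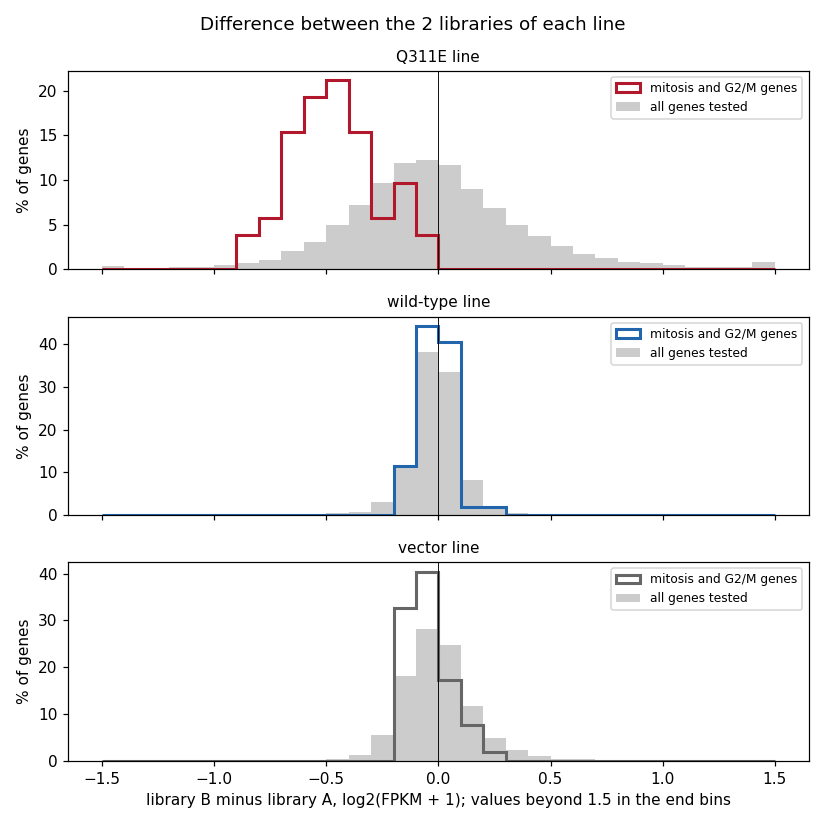
Histograms of the log2(FPKM + 1) difference library B minus library A (horizontal axis) in the Q311E, wild-type and vector lines, as percent of genes (vertical axis), for the 52 tested members (outline) and all 11481 tested genes (grey). In the Q311E line the members lie between -0.87 and 0.00 around a median of -0.48, while in the other lines they centre near 0.

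Related gene lists put the pattern in context. They were chosen with earlier results of these data known and are not independent of the members. Of 48 other mitosis genes, 9 fell and none rose in Q311E against vector (18.8% lower, against 9.28% of all genes; median -0.30). In wild-type against vector 2 rose and 3 fell (4.17% and 6.25%, near the 3.54% and 8.76% of all genes; median 0.15). In Q311E against wild-type 16 fell and none rose (33.3% lower, against 10.1% of all genes; median -0.42). Their median in Q311E A and B was -0.03 and -0.48 relative to the vector mean. MIS18A, which licenses centromeres for CENPA, had 16.8 and 13.6 FPKM in Q311E A and B, 25.1 and 24.1 FPKM in the wild-type libraries, and 29.4 and 31.3 FPKM in the vector libraries (Q311E against vector -0.96 ± 0.11, limma adjusted p = 0.00881). The kinetochore genes CENPW and SPC24 fell in both MB21D2 lines against the vector, by 0.78 and 0.58 on the log2 scale in Q311E and by 0.62 and 0.53 in wild-type.

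The 29 DNA replication genes had 4 falls in Q311E against vector (13.8%, against 9.28% of all genes) and 6 in Q311E against wild-type (20.7%, against 10.1% of all genes), and no rise in either. In wild-type against vector 0 of them were called by limma, 0 at an unadjusted p under 0.05 and 0 by limma-voom. Relative to the vector mean their median in Q311E A and B was -0.03 and -0.51, and all 29 were lower in Q311E B than in Q311E A. Subunits and regulators of the anaphase-promoting complex had a median B minus A in the Q311E line of -0.04 over 14 tested genes, with 7 lower in B. That median was -0.36 for 13 cohesin genes (12 lower in B), -0.34 for 19 G1 genes (15 lower in B) and -0.06 for 12 DREAM and MuvB genes (8 lower in B), against -0.04 for all genes. Cohesin and its regulators had 1 fall, CDCA5, in Q311E against wild-type (7.69%, against 10.1% of all genes called lower). They had 0 calls by limma in either comparison with the vector. At an unadjusted p under 0.05, 1 was higher in Q311E and 2 were higher in wild-type than in the vector, and limma-voom called 0 and 1.

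Of 19 tested G1 cyclins, CDKs and inhibitors, 2 rose and 1 fell in Q311E against vector (10.5% and 5.26%), 2 fell in wild-type against vector (10.5%), and 5 rose and 2 fell in Q311E against wild-type (26.3% and 10.5%). Of the 14 tested genes of the anaphase-promoting complex, 2 rose in Q311E against vector (14.3%), and 1 rose and 1 fell in each of the other comparisons (7.14% each). Of the 12 tested genes of the DREAM and MuvB complexes, 2 rose in wild-type against vector (16.7%), and 1 rose and 3 fell in Q311E against wild-type (8.33% and 25%). Over all genes the shares called higher and lower were 8.67% and 9.28% in Q311E against vector, 3.54% and 8.76% in wild-type against vector, and 17.5% and 10.1% in Q311E against wild-type, and with lists this short each of these shares rests on 1 to 5 genes. In the DREAM and MuvB list, MYBL2 (B-MYB), which switches MuvB to activate mitotic promoters, had 32.9 and 24.4 FPKM in Q311E A and B, 48.0 and 47.2 FPKM in the wild-type libraries, and 22.3 and 21.3 FPKM in the vector libraries. It rose in wild-type against vector (1.09 ± 0.14, limma adjusted p = 0.0155) and was lower in Q311E than in wild-type (-0.73 ± 0.14, limma adjusted p = 0.0226). E2F4, the DREAM subunit that binds E2F sites, had 37.7 and 35.5 FPKM in Q311E A and B, 56.2 and 54.5 FPKM in wild-type A and B, and 41.9 and 40.6 FPKM in vector A and B. TFDP2, of the same list, was higher in Q311E than in wild-type (0.77 ± 0.17, limma adjusted p = 0.0286). MYBL2 and E2F4 were highest in the wild-type line. CDKN1A, the CDK inhibitor p21, ran the other way, with 11.4 and 12.8 FPKM in Q311E A and B, 1.998 and 2.35 FPKM in wild-type A and B, and 4.25 and 5.34 FPKM in vector A and B. It rose in Q311E (1.18 ± 0.13, limma adjusted p = 0.00802) and fell in wild-type (-0.86 ± 0.13, limma adjusted p = 0.0198) against the vector. CDKN2B, the CDK4 and CDK6 inhibitor p15, rose in Q311E against vector (0.86 ± 0.10, limma adjusted p = 0.00974), and its value in wild-type against vector was -0.45 ± 0.10 (limma adjusted p = 0.0507). CDKN1A was no lower in Q311E B than in Q311E A, while CDKN2B was lower in B (7.64 and 6.42 FPKM in Q311E A and B). The part of any of these genes in the members' levels was not tested.

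CKS2 (ENSG00000123975, GRCh38 chromosome 9, 89311198 to 89316703) sits in a stretch that was lower at the median in both MB21D2 lines: its 30 nearest tested genes, from 84275457 to 92878038, had a median of -0.36 in Q311E against vector and -0.41 in wild-type against vector. CDC25B (ENSG00000101224, chromosome 20, 3786772 to 3806121) lies in a stretch, from 2658395 to 6040053, whose 30 nearest tested genes had a median of -0.52 in Q311E against vector and -0.23 in wild-type against vector. The fitted value of each gene, -1.0004 and -1.01 in Q311E against vector, was thus lower than that of its neighbourhood. TTK (ENSG00000112742, chromosome 6, 80003887 to 80042527) had 30 neighbours with a median of 0.06 in wild-type against vector. UBE2C lies elsewhere on chromosome 20: neighbours of it, at 45812576 to 45816957, had a median of 0.08 in Q311E against vector. What part a regional shift has in these values was not tested.

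PRC1 and NUSAP1 are uncertain. PRC1, the microtubule bundler of the central spindle, had 0.408 and 0.193 FPKM in Q311E A and B, 0.564 and 0.475 FPKM in wild-type A and B, and 0.585 and 0.631 FPKM in vector A and B, or 23 to 78 recovered reads a library. CENPE, next in mean FPKM, had at least 2.66 FPKM. In GENCODE 29, 58.4% of PRC1's exon bases and 62.2% of those of NUSAP1, a microtubule-binding protein, are also exons of other genes, mainly on the same strand. FOXM1 and SPAG5 follow with 15.9% each. Reads in shared exons may have been split or dropped, since how the counting treated them is not given in the sources used here, so the levels of PRC1 and NUSAP1 are not comparable with those of other members.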

How the data were processed

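The authors deposited 1 table of FPKM values for 30178 human Ensembl gene IDs. CASAVA, mm8 and mm9 (mouse builds) appear per the submitters' processing notes, with no role stated. The sources used here give no aligner, counter, annotation or strand setting. Names matched 29993 IDs, and positions and exon lengths came from GENCODE 29 (GRCh38). Low FPKM values were whole multiples of 1 read's worth: reads whole within 0.001 were recovered for 30030 genes (99.51%), 22361 at the exact GENCODE 29 length and the others at a fitted length.

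The test was limma 3.58.1 (R 4.3.3) on log2(FPKM + 1), with a trended variance prior, over the 11481 genes with a mean of at least 1 FPKM. All 6 libraries entered 1 fit, and p-values are two-sided, and a gene is called at a value under 0.05 after Benjamini-Hochberg adjustment over all genes. The log2 scale with a pseudocount understates changes of low genes. In simulated data of 11481 genes, changes of 1 (log2) were recovered in 64% of genes for Q311E against vector, 59% for wild-type against vector and 56% for Q311E against wild-type. The simulation gave all libraries of a gene the same pooled spread, unlike the real Q311E libraries, which differed more than the others. It held no changes under 1, so it does not give the recovery of the smaller changes that most members had. Neighbours are the 15 nearest tested genes on each side, members left out.

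The 53 members, the 6 related lists and the tests were chosen with earlier results of these data known, so no list was tested. Named with every library's value are members called in any comparison, the most abundant of each role, the 10 with the widest gap between the Q311E libraries and the lowest, 36 in all; of related lists, up to 3 by p-value.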

Additional observations from a re-analysis of the deposited data

How the results depend on the processing

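The count of members called in Q311E against vector (8) was 4 without a filter, with TPM scaling and with array weights, and 2 with only the 2 groups in the fit; leaving out 1 library gave 0 to 49. In wild-type against vector (2) it was 1 without a filter, with TPM scaling and without a trend in the variance prior, 4 with median scaling, 38 with array weights and 41 with only the 2 groups; leaving out 1 library gave 0 to 40. In Q311E against wild-type (19) it was 4 without a filter, 38 with median scaling and 2 with only the 2 groups; leaving out 1 library gave 0 to 50. The shares of all genes called either way moved too. In Q311E against vector they were 18% in the main fit, 4.01% without a filter and 13.2% with TPM scaling. Array weights gave 7.59% and only the 2 groups 2.28%. In wild-type against vector, 12.3% became 1.3%, 8.34%, 11.5%, 11.3%, 48% and 45.9%, in the order of the counts above. In Q311E against wild-type, 27.5% became 5.33%, 31.5% and 8.47%. The counts are therefore not read apart from these shares. The cause of these changes was not tested. With 1 library left out, the member medians in these comparisons ranged from -0.57 to -0.051, from 0.25 to 0.27 and from -0.79 to -0.32. No median and no called member's value changed sign under the 18 alternatives. Of 29 calls of single members, 5 passed under every alternative that kept the 6 libraries. The letters A and B pair nothing in the labels: B minus A correlated across genes at 0.387 between Q311E and vector, -0.006 between Q311E and wild-type and -0.026 between wild-type and vector. With the letter as a replicate block the calls were 8, 2 and 27. In Q311E against vector that fit called 16.9% of all genes either way. Shares for the other comparisons are not given, so those counts are not set against the series. The gap between the Q311E libraries, under 8 settings added after the data were seen, had a median from -0.60 to -0.43, with 51 to 53 members lower in B. FPKM scale to library totals, so changes of total RNA cannot be seen, and 2 libraries a line limit what can pass.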
